A study of Mus musculus with 6 samples.

Results

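The proteins of the mitochondrial ribosome are encoded by nuclear genes, and 73 of these genes were measured among 22180 genes in sciatic nerves that lack Srebf-1c and in wild-type nerves. They were taken by name: genes whose symbol starts with Mrpl or Mrps and a number, plus Dap3 and Ptcd3, each read by a probe set with exactly 1 gene symbol, pseudogenes left out. By symbol 43 belong to the large subunit and 30 to the small subunit. A further 7 genes, Mrpl30, Mrpl33, Mrpl41, Mrpl43, Mrpl44, Mrpl53 and Mrps6, were read only by probe sets that carry several symbols and were not analysed. The samples were whole sciatic nerves, the large mixed nerve of the hind leg, from mice aged 10 months: 3 titled Srebf-1c KO and 3 wild-type littermates, each on 1 Affymetrix whole-transcript array. The protein made by the deleted form of Srebf1 is a transcription factor best known for switching on genes of fatty acid synthesis. The labels do not say whether each nerve came from a different mouse, so the spread between arrays may be partly technical, and they do not describe the allele or the strain. A whole nerve holds Schwann cells, axons, fibroblasts, vessels and adhering tissue, so that in these bulk samples fewer cells of a type and less RNA per cell cannot be told apart.

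The mitochondrial ribosome translates the few messenger RNAs of the mitochondrial genome, all of which code for subunits of the respiratory chain and the ATP synthase. Its small subunit reads the messenger RNA and its large subunit joins the amino acids. Many of its proteins descend from bacterial ribosomal proteins, while others have no bacterial counterpart and were added in the mitochondrial line. Nuclear genes for mitochondrial proteins are often served by the transcription factors NRF1, GABPA (of the ETS family) and YY1, and many stand head to head with another gene and share its promoter.

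The promoters of these genes carried the letters of those factors more often than promoters at large. In the RefSeq promoter table of GRCm38.p6, which gives 250 bases before and 50 after each start, 63 of the 73 genes were found. All motifs were searched on both strands. The NRF1 core motif GCGCANGCG stood in 22.2% of the 63 promoters, 14 in number, against 6.47% of all 27025. The ETS motif CCGGAAGT stood in 9 of the 63 (14.3%), against 4% of all. The YY1 core motif AAGATGGCG also stood in 9 (14.3%), against 1.49% of all. NRF1 matches were found for Mrpl10, Mrpl12, Mrpl14 and Mrps26 among others, ETS matches for Mrpl27, Mrpl52, Mrps18c and Mrps26, and YY1 matches for Mrpl36, Mrpl42, Mrps11 and Ptcd3. The sterol regulatory element TCACCCCAC, which SREBP proteins bind, was matched in 0 of the 63 and in 0.522% of all. At so low a share of all promoters, 0 in 63 says little, and only these exact letters were searched. The E-box CACGTG, bound by many factors, stood in 7.94%, against 7.24% of all, and the TATA box letters TATAAA in 6.35%, against 14.2% of all. Median GC content was 58.0% in the 63 promoters and 52.7% in all. A match describes the letters in this window and does not show that a factor binds. Another gene started within 1000 bases on the opposite strand, pointing away, for 24 of the 63 genes (38.1%), against 10.5% of all genes in the table. Mrpl46 of the large subunit and Mrps11 of the small subunit form such a pair, 42 bases apart. Mrps12 stands 147 bases from Sars2, the mitochondrial seryl-tRNA synthetase, and Mrpl47 stands 308 bases from Ndufb5, a subunit of respiratory complex I. Of the 24 neighbours, all measured, 19 had a lower mean in KO (79.2%), against 12624 of all 22180 genes. Their median log2 fold change was -0.03, as was that over all genes. Mrpl46 and Mrps11, each the neighbour of the other, are counted among the 24 neighbours. The promoters of the 4 genes with an unadjusted p under 0.05 in the comparison below and of the Mrps11 side of the shared pair are shown, 5′ to 3′ on the gene's strand, with matches to the NRF1, ETS or YY1 motif on either strand in capitals.
Ptcd3, chr6:71908713-71909012, minus strand, 1 YY1 match: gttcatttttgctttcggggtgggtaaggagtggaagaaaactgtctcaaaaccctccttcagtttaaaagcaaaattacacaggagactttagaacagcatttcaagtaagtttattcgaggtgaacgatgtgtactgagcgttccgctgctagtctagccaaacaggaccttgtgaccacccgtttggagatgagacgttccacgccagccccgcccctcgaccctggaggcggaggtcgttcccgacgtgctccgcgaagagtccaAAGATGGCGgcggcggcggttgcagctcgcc
Mrpl52, chr14:54426659-54426958, plus strand, 1 ETS match: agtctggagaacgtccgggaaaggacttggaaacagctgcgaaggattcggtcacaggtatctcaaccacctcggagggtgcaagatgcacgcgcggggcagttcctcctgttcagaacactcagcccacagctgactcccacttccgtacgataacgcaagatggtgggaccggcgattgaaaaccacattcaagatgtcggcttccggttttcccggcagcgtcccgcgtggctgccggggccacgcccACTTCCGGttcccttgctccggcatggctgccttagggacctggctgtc
Mrpl40, chr16:18876588-18876887, minus strand, no match: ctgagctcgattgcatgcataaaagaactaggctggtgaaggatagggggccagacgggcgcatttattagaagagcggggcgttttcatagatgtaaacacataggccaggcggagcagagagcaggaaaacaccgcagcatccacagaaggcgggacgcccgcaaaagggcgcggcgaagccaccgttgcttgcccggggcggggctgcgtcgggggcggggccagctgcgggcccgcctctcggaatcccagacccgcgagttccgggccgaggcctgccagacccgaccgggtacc
Mrps26, chr2:130563507-130563806, plus strand, 1 ETS match and 2 overlapping NRF1 matches: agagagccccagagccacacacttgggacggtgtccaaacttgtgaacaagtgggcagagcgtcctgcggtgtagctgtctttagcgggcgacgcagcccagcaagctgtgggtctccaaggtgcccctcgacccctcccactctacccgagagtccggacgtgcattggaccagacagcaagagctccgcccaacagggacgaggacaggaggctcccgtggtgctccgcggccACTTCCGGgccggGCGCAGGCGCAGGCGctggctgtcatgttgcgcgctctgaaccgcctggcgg
Mrps11, chr7:78782881-78783180, plus strand, 1 YY1 match on the other strand: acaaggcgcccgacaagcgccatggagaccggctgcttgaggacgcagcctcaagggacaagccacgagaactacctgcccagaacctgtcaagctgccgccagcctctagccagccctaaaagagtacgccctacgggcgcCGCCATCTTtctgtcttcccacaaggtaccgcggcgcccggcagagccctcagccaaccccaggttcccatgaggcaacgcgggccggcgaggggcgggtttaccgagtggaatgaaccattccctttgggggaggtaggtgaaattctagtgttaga
Of the 4 windows with a match, those of Ptcd3 and Mrps11 hold the YY1 motif, and those of Mrpl52 and Mrps26 the ETS motif. The Mrps26 window also holds the NRF1 motif, and the Mrpl40 window holds none of the 3. Like the YY1 match of Mrps11, the ETS matches of Mrpl52 and Mrps26 lie on the other strand.

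The arrays were alike in scale, with a median intensity over 41077 probe sets of 118.9 to 122.6 on KO arrays and 115.5 to 118.0 on wild-type arrays. Srebf1 was at 8.04 to 8.11 on the log2 scale on KO arrays, against 9.53 to 9.70 on wild-type arrays, and alone of all genes passed a limma adjusted p of 0.05 (adjusted p = 0.0497). Whether its probe set lies in the deleted stretch is not given in the sources used here. The Schwann cell genes Pmp22, at 13.57 to 13.67 in KO and 13.44 to 13.66 in wild type, and Mbp, at 12.68 to 12.76 in KO and 12.65 to 12.81 in wild type, were bright on every array, as were skeletal muscle genes such as Acta1, at 13.28 to 13.85 in KO and 12.69 to 13.84 in wild type.

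No mitochondrial ribosomal protein gene passed the test of KO against wild type. The 73 genes leaned slightly lower in KO: 58 had a lower mean and 15 a higher one, with a median log2 fold change of -0.09 over the 73 genes, against -0.03 over all genes. Of all 22180 genes 43.1% had a higher mean in KO, and of the brighter 50% of genes, which held 64 of the 73, 37.0% did, against 11 of these 64. The middle 50% of the 73 fold changes ran from -0.18 to -0.01 on the log2 scale, and 55 of the 73 lay within 0.2 of 0. The shift in the median was no larger than the spread of single arrays: the pooled SD of the genes' median between arrays of a group was 0.10. This SD is not the error of a difference between means of 3 arrays. The mean log2 fold change over the 73 genes was -0.11. After quantile normalization the split was 45 lower and 28 higher with a median of -0.03. There 48.5% of all genes had a higher mean, and their median was -0.0056. Without KO replicate 2 or without wild-type replicate 1 it was 47 lower and 26 higher, and without KO replicate 1 it was 65 lower and 8 higher. In these fits, in the same order, 44.1%, 43.8% and 43.7% of all genes had a higher mean. The median was -0.04 without wild-type replicate 1 and -0.17 and -0.16 without KO replicate 1 and wild-type replicate 2. Over all genes the median was then -0.03, -0.03 and -0.04.

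In limma 0 of the 73 genes passed an adjusted p of 0.05, where 0.00451% of all genes did, and the smallest adjusted p among the 73 was 0.850. The unadjusted p was under 0.05 for 4 genes (5.48% of the 73, against 5.83% of all genes). All 4 were lower in KO, where 3.49% of all genes were, and 0 were higher, where 2.34% of all genes were. The design text of the study asks for 1.5-fold or more together with p under 0.05, not adjusted. By the representing probe sets Ptcd3 alone met this, as a lower gene, where 1.19% of all genes did, 0.555% lower and 0.640% higher. The KO and wild-type values did not overlap for 5 genes (6.85% of the 73, against 12.3% of all genes). Of these, Mrpl27 was higher, where 4.08% of all genes were, and 4 were lower, where 8.21% of all genes were. The shares of genes with an unadjusted p under 0.05 and of genes without overlap were near or below those of all genes, apart from that of genes lower at an unadjusted p under 0.05. The unadjusted count of 4 was 1 (1.37% of the 73) without KO replicate 3 or wild-type replicate 1, where 2.82% and 6.18% of all genes passed. It was 2 (2.74%) without KO replicate 1, KO replicate 2 or wild-type replicate 3, where 3.63%, 6.79% and 7.19% of all genes passed. Without wild-type replicate 2 it was 8 (10.96% of the 73, against 5.90% of all genes). Intervals were narrow for most genes: for 54 of the 73 the 95% interval of the fold change, unadjusted, lay within 1.5-fold in either direction, while for 16 it reached beyond 1.5-fold lower and for 3 beyond 1.5-fold higher in KO.

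**Figure D1:**
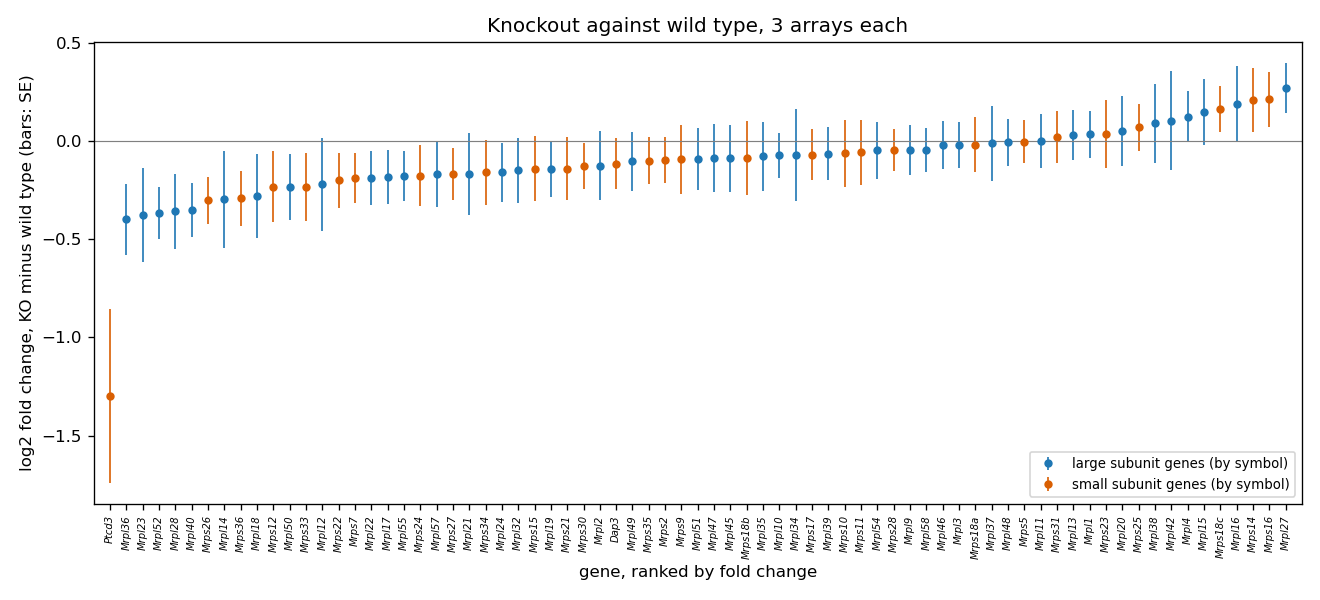
Log2 fold change, KO minus wild type, of each of the 73 genes in rank order, with bars of 1 standard error from limma (3 arrays per genotype), blue for large and orange for small subunit genes by symbol. Most points lie a little below 0, Ptcd3 stands alone at -1.30, and both colours are spread along the whole range.

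Among large subunit genes the lowest fold changes were those of Mrpl36, Mrpl23, Mrpl52, Mrpl28, Mrpl40 and Mrpl14. Mrpl52, one of the proteins without a bacterial counterpart, was at 9.58, 9.59 and 9.67 on the log2 scale on KO arrays, against 10.11, 9.77 and 10.07 on wild-type arrays. Its KO values lay below every wild-type value, with a log2 fold change of -0.37 ± 0.13 (SE), or 0.775 of the wild-type level (limma adjusted p = 0.850). Mrpl40, also without a bacterial counterpart, was at 7.66, 7.78 and 7.46 in KO, against 8.07, 7.83 and 8.06 in wild type. Its groups were also apart, narrowly between KO replicate 2 and wild-type replicate 2, with a log2 fold change of -0.35 ± 0.14 (SE).

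Mrpl36, the counterpart of the small bacterial protein bL36, was at 7.19, 7.25 and 6.88 in KO, against 7.70, 7.63 and 7.18 in wild type, a log2 fold change of -0.40 ± 0.18 (SE). The groups overlapped through wild-type replicate 3 alone. Mrpl23, whose bacterial counterpart sits at the exit of the peptide tunnel, was at 9.74, 9.30 and 9.67 in KO, against 10.23, 9.44 and 10.17 in wild type, and wild-type replicate 2 lay among the KO values (-0.38 ± 0.24, SE). Mrpl28 was at 8.09, 7.52 and 7.90 in KO, against 8.46, 8.05 and 8.07 in wild type (-0.36 ± 0.19, SE). Mrpl14 was at 8.16, 7.49 and 7.92 in KO, against 8.43, 7.70 and 8.33 in wild type (-0.30 ± 0.25, SE). In Mrpl23, Mrpl28 and Mrpl14 the lowest value was that of KO replicate 2 and the highest that of wild-type replicate 1, and the groups overlapped in all 3.

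Mrpl12, which forms the stalk that recruits translation factors and in human is also known to bind the mitochondrial RNA polymerase, was at 7.91, 7.61 and 7.35 in KO, against 8.28, 7.48 and 7.77 in wild type (-0.22 ± 0.24, SE). Its stalk partner Mrpl10 was at 9.76, 9.68 and 9.67 in KO, against 9.70, 9.75 and 9.89 in wild type (-0.07 ± 0.11, SE). The groups overlapped for both stalk genes. Mrpl58, a peptidyl-tRNA hydrolase built into the large subunit and known as a rescuer of stalled ribosomes, stood at -0.05 ± 0.11 (log2 fold change, SE) and varied little, at 9.14 to 9.32 in KO and 9.28 to 9.30 in wild type.

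Among small subunit genes the lowest fold change was that of Ptcd3, a pentatricopeptide repeat protein (mS39) at the entry of the messenger RNA channel. Its representing probe set was at 8.93, 8.09 and 8.77 in KO, against 9.16, 9.62 and 10.89 in wild type, averaging 8.60 ± 0.45 in KO and 9.89 ± 0.89 in wild type (SD, n = 3 each). All KO values lay below all wild-type values, wild-type replicate 3 stood far above the rest, and the log2 fold change was -1.30 ± 0.44 (SE), or 0.407 of the wild-type level (limma adjusted p = 0.850). Leaving out wild-type replicate 3 gave -0.80. Leaving out KO replicate 2 gave -1.04, which no longer met the criterion of the study. The second probe set of Ptcd3 was at 9.47, 9.03 and 9.12 in KO, against 9.18, 9.22 and 9.18 in wild type, with a log2 fold change of 0.01 ± 0.14 (SE). The 2 probe sets gave different readings of Ptcd3, and their means over 6 arrays, 9.24 and 9.20, lay so close that the choice of the brighter one rests on a small margin. Polr1a, the RNA polymerase I gene that starts 291 bases from Ptcd3 on the other strand, had a log2 fold change of -0.02 ± 0.12 (SE).

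Mrps26, also without a bacterial counterpart, was at 7.95, 7.97 and 7.81 in KO, against 8.17, 8.12 and 8.34 in wild type. Its groups did not overlap, and its log2 fold change was -0.30 ± 0.12 (SE; limma adjusted p = 0.850). Dap3, the GTP-binding small subunit protein first named as a death-associated protein, was at 8.60, 8.62 and 8.39 in KO, against 8.76, 8.50 and 8.68 in wild type (-0.12 ± 0.13, SE). The groups overlapped for Dap3. Mrps36 stood at -0.29 ± 0.14 (SE). Its product, despite the name, is now placed in the 2-oxoglutarate dehydrogenase complex rather than in the ribosome. Mrps12, whose bacterial counterpart guards decoding accuracy, stood at -0.23 ± 0.18 (SE). The steadiest gene was Mrps28, with an SD of 0.05 over the 6 arrays and a log2 fold change of -0.05 ± 0.11 (SE).

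The genes on the higher side moved less. Mrpl27, whose bacterial counterpart reaches to the peptidyl transferase centre, was at 6.32, 6.5 and 6.40 in KO, against 6.08, 6.30 and 6.04 in wild type. Every KO value lay above every wild-type value, narrowly between KO replicate 1 and wild-type replicate 2, and the log2 fold change was 0.27 ± 0.13 (SE; limma adjusted p = 0.867). Mrps14 was at 7.02, 6.96 and 7.22 in KO, against 6.56, 7.03 and 6.99 in wild type (0.21 ± 0.16, SE). Mrpl16 was at 9.80, 9.36 and 9.31 in KO, against 9.43, 9.0 and 9.48 in wild type (0.19 ± 0.19, SE). Both are counterparts of bacterial proteins, and for both the groups overlapped. Mrpl15 was at 9.22, 8.80 and 8.93 in KO, against 8.86, 8.60 and 9.04 in wild type (0.15 ± 0.17, SE). Mrpl4 was at 9.52, 9.39 and 9.28 in KO, against 9.36, 9.12 and 9.34 in wild type (0.12 ± 0.13, SE). Mrpl42 was at 9.60, 8.93 and 9.13 in KO, against 9.57, 8.96 and 8.81 in wild type (0.10 ± 0.25, SE). In Mrpl16, Mrpl15, Mrpl4 and Mrpl42 the highest value was that of KO replicate 1, and the sign of Mrpl42 turned without that array (-0.09) or without wild-type replicate 3 (-0.05).

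For 10 of the 73 genes 2 probe sets were available, and in 6 of the 10 they gave fold changes of opposite sign. Mrps16, the counterpart of bacterial bS16, was at 7.54, 7.59 and 7.57 in KO, against 7.30, 7.59 and 7.17 in wild type by its brighter probe set (0.21 ± 0.14, SE). By its dimmer probe set it was at 6.27, 5.93 and 5.78 in KO, against 6.90, 6.67 and 6.57 in wild type, with no overlap and a log2 fold change of -0.72 ± 0.17 (SE; limma adjusted p = 0.839 over every probe set with 1 symbol). The dimmer probe set would meet the criterion of the study, which by the representing probe sets Ptcd3 alone met. It ran lower and the brighter one, which represents the gene, slightly higher in KO. Mrps18c, of a family of 3 related proteins with Mrps18a and Mrps18b, was at 6.73, 6.87 and 6.91 in KO, against 6.73, 6.58 and 6.71 in wild type by its brighter probe set (0.16 ± 0.12, SE). Its dimmer probe set was at 6.60, 6.35 and 6.28 in KO, against 6.73, 6.75 and 6.54 in wild type (-0.27 ± 0.14, SE). The groups overlapped slightly in both, in opposite directions.

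Mrpl47 had a log2 fold change of -0.09 ± 0.17 (SE) by its brighter probe set, at 7.74, 7.17 and 7.42 in KO, against 7.67, 7.38 and 7.56 in wild type. Its dimmer probe set was at 6.37, 5.28 and 5.96 in KO, against 5.16, 5.67 and 4.79 in wild type, with 0.66 ± 0.32 (SE) and overlapping groups. Mrps17 gave -0.07 ± 0.13 by its brighter probe set, with 7.69, 7.90 and 7.73 in KO, against 7.90, 7.69 and 7.93 in wild type. The dimmer probe set of Mrps17 gave 0.24 ± 0.16 (SE), at 6.64, 6.25 and 6.21 in KO, against 6.25, 6.14 and 5.99 in wild type. Mrps5 gave -0.0039 ± 0.11 by its brighter probe set, at 8.74, 8.60 and 8.66 in KO, against 8.63, 8.71 and 8.67 in wild type. Its dimmer probe set gave 0.18 ± 0.11, at 6.98, 7.09 and 6.96 in KO, against 6.86, 6.79 and 6.85 in wild type, with every KO value above every wild-type value. Neither Mrpl47, Mrps17 nor Mrps5 had the same sign in both readings.

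The other 4 genes with 2 probe sets kept 1 sign. Mrpl12 gave -0.21 ± 0.18 (SE) by its dimmer probe set, at 6.39, 6.26 and 6.17 in KO, against 6.67, 6.09 and 6.68 in wild type. Mrpl10 gave -0.14 ± 0.13 by its dimmer probe set, at 7.25, 7.09 and 7.06 in KO, against 7.31, 7.13 and 7.38 in wild type. In both the groups overlapped, as they had by the brighter probe set. Mrpl36 gave -0.06 ± 0.13 by its dimmer probe set, at 6.18, 6.33 and 6.36 in KO, against 6.19, 6.53 and 6.33 in wild type. Mrps18b, another member of the family of Mrps18c, was at 9.06, 8.84 and 8.74 in KO, against 9.24, 8.61 and 9.06 in wild type by its brighter probe set (-0.09 ± 0.19, SE). By its dimmer probe set Mrps18b was at 8.71, 8.52 and 8.33 in KO, against 8.69, 8.05 and 8.88 in wild type (-0.02 ± 0.23, SE). The deficit of Mrpl36 seen by the brighter probe set was not matched by the dimmer one. The genes of the 73 with 2 probe sets were also read by the dimmer one, chosen after seeing the data, with all other genes as before. By this reading 56 of the 73 genes had a lower mean in KO, and no share over all genes was computed by the same rule. Mrps16, Mrpl52, Mrpl40 and Mrps26 then had an unadjusted p under 0.05, and Mrps16 in place of Ptcd3 met the criterion of the study.

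**Figure D2:**
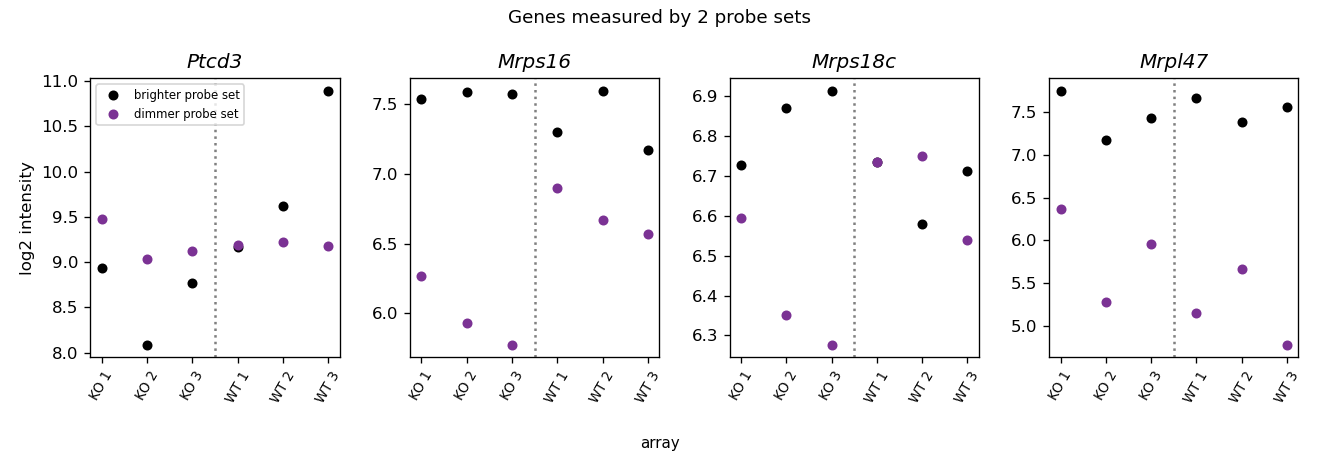
Log2 intensity of the brighter (black, higher mean over 6 arrays) and dimmer (purple) probe set of Ptcd3, Mrps16, Mrps18c and Mrpl47 on each array, KO left of the dotted line and wild type right of it; each panel has its own axis. In Ptcd3 the black points fall apart by genotype and the purple ones do not, and in Mrps16 the purple points are lower in KO while the black ones are not.

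Large and small subunit genes differed in their response by less than the spread between arrays. The mean log2 fold change was -0.10 over the 43 large subunit genes and -0.12 over the 30 small subunit genes, with medians of -0.09 and -0.10. Lower means in KO were found for 34 of 43 large and 24 of 30 small subunit genes. On each array the mean of the log2 intensities minus each gene's mean over the 6 arrays was taken as a subunit score, and the small score was subtracted from the large one. This difference was 0.09, -0.05 and -0.0028 on KO arrays, against 0.04, -0.08 and -0.00076 on wild-type arrays. The ranges of the genotypes overlapped, and the difference of large minus small fold change, 0.03, was below the pooled SD of 0.07 between arrays of a group. Its sign was not stable. Without Ptcd3, or with its second probe set, both chosen after seeing the data, the difference was -0.01 and -0.02. With Ptcd3 kept, it was -0.01 without KO replicate 1 and -0.0064 without wild-type replicate 2.

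Sorting the genes by where their products sit in structures of mammalian mitochondrial ribosomes, rather than by symbol, changed little. Mrps30 (mL65) and Mrps18a (mL66), named as small subunit genes, belong to the large subunit, and had log2 fold changes of -0.13 ± 0.12 and -0.02 ± 0.14 (SE). With them moved and Mrps36 left out, there were 45 large and 27 small subunit genes, and the difference of large minus small was 0.02. The split by bacterial counterpart follows the unified protein names. By these, Mrps18a (mL66) and Mrps18b (mS40) count as without one, though they are related to Mrps18c (bS18m). Of the 28 large subunit proteins with a bacterial counterpart 21 had a lower mean in KO, with a median of -0.11. Of the 17 without one 15 did, with a median of -0.07. In the small subunit 12 of the 15 with a bacterial counterpart had a lower mean, with a median of -0.07, and 9 of the 12 without one, with a median of -0.14. By the representing probe sets all 4 genes with an unadjusted p under 0.05 were among the 29 without a bacterial counterpart. Of the 43 with a bacterial counterpart 0 passed this limit, where 5.83% of all genes did, 3.49% as lower genes. With each gene read by its dimmest probe set, chosen after seeing the data, Mrps16, which has a bacterial counterpart, took the place of Ptcd3 among the 4. No test was made between these classes.

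**Figure D3:**
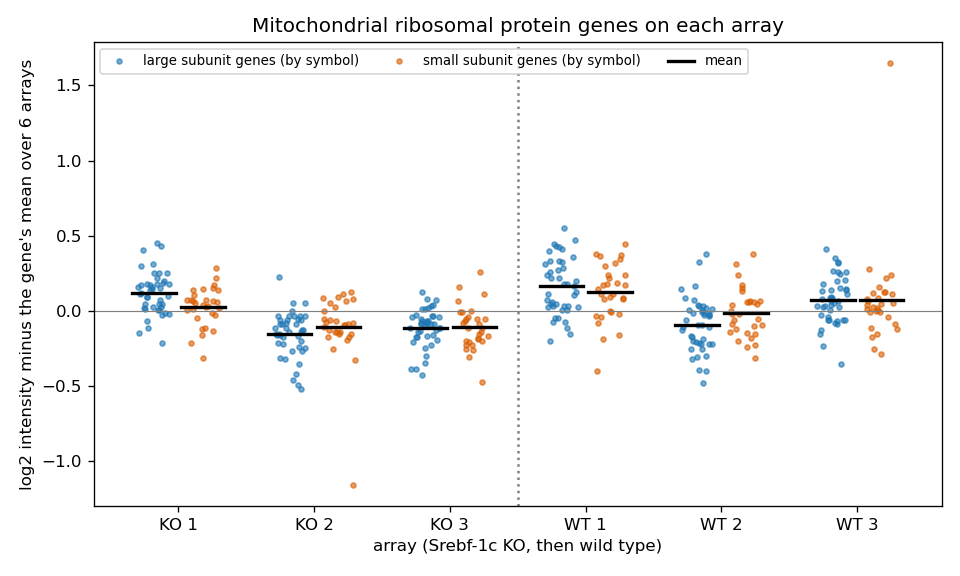
Deviation of the log2 intensity from each gene's 6-array mean, 1 point per gene, for large (blue, 43) and small (orange, 30) subunit genes on each array, with black bars at the means. The blue and orange clouds shift together from array to array, the blue means are highest on KO 1 and WT 1, and the point far above the rest on WT 3 and the one far below the rest on KO 2 are Ptcd3.

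The genes varied from array to array within each genotype, and the ranges of their scores overlapped between genotypes. The mean score over the 73 genes was 0.08, -0.13 and -0.11 on KO arrays, against 0.15, -0.06 and 0.07 on wild-type arrays. KO replicate 1 thus lay above wild-type replicates 2 and 3, and wild-type replicate 2 lay next to the lower KO arrays. The highest value of a gene was on KO replicate 1 or wild-type replicate 1 for 49 of the 73 genes (67.1%, against 35.1% of all genes). The lowest value was on KO replicate 2, KO replicate 3 or wild-type replicate 2 for 60 genes (82.2%, against 50.2% of all genes). These arrays are the ones with the highest and the lowest scores over the same 73 genes, so larger shares than over all genes are partly built in. The typical gene had an SD of 0.19 over the 6 arrays, against 0.20 for all genes, and after Ptcd3 the widest were Mrpl23 at 0.38, Mrpl14 at 0.37, Mrpl42 at 0.34 and Mrpl12 at 0.33.

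Markers of skeletal muscle, a tissue rich in mitochondria that lies next to the nerve, moved between arrays in part with these scores. The muscle score over 20 genes, built in the same way, was 0.54, -0.40 and 0.18 on KO arrays, against 0.82, -0.98 and -0.16 on wild-type arrays. The arrays with the highest muscle score, KO replicate 1 and wild-type replicate 1, were also those with the highest score over the 73 ribosomal genes, KO replicate 1 only just above wild-type replicate 3, while KO replicate 3 was higher than wild-type replicate 3 in muscle and lower in ribosomal genes. Of the 20 muscle genes 13 had a higher mean in KO and 0 passed the test in limma. With the muscle score as a covariate 60 of the 73 genes had a lower mean in KO, while 42.3% of all genes had a higher one, and the median was -0.13. In that fit 8 of the 73 genes had an unadjusted p under 0.05 (10.96%, against 6.97% of all genes), and 0 passed the adjusted limit. The adipocyte score over 10 genes was -0.88, 1.47 and -1.01 on KO arrays, against -0.85, -0.30 and 1.57 on wild-type arrays. The score over 5 brown adipocyte genes was 0.43, -0.23 and -0.31 on KO arrays, against -0.0021, 0.24 and -0.13 on wild-type arrays. It averages opposite patterns. Ucp1, Cidea and Elovl3 were highest on wild-type replicate 2, at 8.88, 8.98 and 6.25. Cox8b and Cox7a1 were lowest on that array, at 9.73 and 9.32, and highest on KO replicate 1, at 11.85 and 12.03. Schwann cell genes, 8 of them, ranged from -0.11 to 0.10 in KO and from -0.20 to 0.21 in wild type, and 8 endothelial genes from -0.46 to 0.16 in KO and from -0.07 to 0.32 in wild type. The score over 7 neuron genes was -0.20, 0.17 and 0.04 on KO arrays, against 0.44, -0.09 and -0.35 on wild-type arrays. For 10 macrophage genes it ranged from -0.51 to 0.50 in KO and from -0.32 to 0.54 in wild type. For 7 fibroblast genes it ranged from -0.39 to 0.34 in KO and from -0.27 to 0.18 in wild type. The part of these tissues and cell types, skeletal muscle among them, in the ribosomal scores was not tested.

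**Figure D4:**
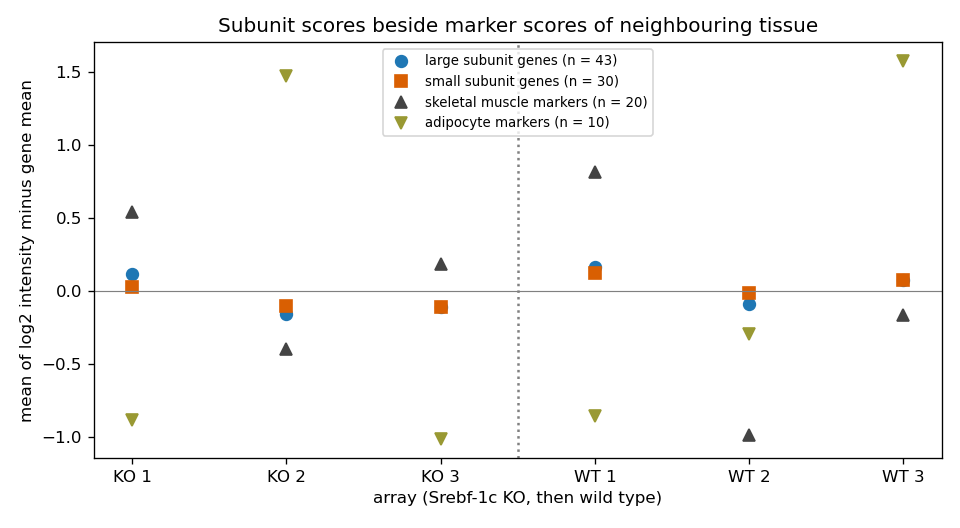
Mean of the log2 intensity minus the gene mean on each array for large (blue circles) and small (orange squares) subunit genes, skeletal muscle markers (dark triangles up) and adipocyte markers (olive triangles down), KO left of the dotted line and wild type right of it. The ribosomal scores stay between -0.15 and 0.16 while the muscle score spans -0.98 to 0.82 and the adipocyte score -1.01 to 1.57.

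The rest of the mitochondrial translation system was likewise without a gene past the adjusted limit. Gadd45gip1, a large subunit protein (mL64) outside the naming rule, was at 8.33, 8.0 and 8.11 in KO, against 8.77, 8.31 and 8.46 in wild type (-0.36 ± 0.16, SE), and the groups overlapped through KO replicate 1. Of 17 genes listed as translation factors and related genes, among them Oxa1l, Lrpprc, Mtres1, Mss51 and Tmem177, 9 had a lower mean in KO. Of the 17, 0 had an unadjusted p under 0.05, and their median log2 fold change was -0.0015. The examples with the smallest p were the elongation factor gene Guf1 at 0.20 ± 0.11, the elongation factor Ts gene Tsfm at -0.24 ± 0.15 and the elongation factor G gene Gfm1 at -0.24 ± 0.19 (SE). Of 16 mitochondrial aminoacyl-tRNA synthetase genes, which charge the transfer RNAs, 12 had a lower mean, with a median of -0.06. Ears2, for glutamate, was at 7.98, 7.66 and 7.64 in KO, against 8.18, 8.16 and 8.12 in wild type, without overlap (-0.40 ± 0.13, SE; limma adjusted p = 0.850), and Pars2, for proline, ran the other way at 0.28 ± 0.12.

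Of 27 assembly factor genes, which modify ribosomal RNA and help the subunits form, 16 had a lower mean in KO, with a median of -0.05. Rpusd4, a pseudouridine synthase of the large ribosomal RNA, was at 7.41, 7.41 and 7.15 in KO, against 7.88, 7.89 and 7.60 in wild type, without overlap (-0.46 ± 0.14, SE; limma adjusted p = 0.850). Mterf3 stood at -0.28 ± 0.13 and Ngrn at -0.18 ± 0.11. Of 13 genes of mitochondrial transcription and its nuclear regulators 9 had a lower mean, with a median of -0.10. Nrf1, Gabpa and Yy1, whose motifs are shown above, stood at -0.08 ± 0.11, -0.12 ± 0.12 and 0.05 ± 0.11. Pprc1, a coactivator related to PGC-1, stood at -0.33 ± 0.14, Gabpb1, the partner of Gabpa, at -0.27 ± 0.16 and the mitochondrial transcription factor gene Tfb2m at 0.30 ± 0.18. Of the 73 different genes on these 4 lists, Pars2 was higher at an unadjusted p under 0.05 (1.37%, against 2.34% of all genes), and Ears2 and Rpusd4 were lower (2.74%, against 3.49% of all genes). Both shares were below those of all genes.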

How the data were processed

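The deposited table holds 1 intensity per probe set and array. The design text says that the authors used TAC and Partek Genomic Suite with the Robust Multichip Average, a summary after background correction and normalization between arrays. Values of 3.67 to 23738 show that the scale is linear, not log. The submitters' processing notes name the build mm8, and no software version was found in the labels. Groups follow the sample titles, although the KO samples have wild type as their source. No 2 arrays held the same values (at most 0.117% identical). Precision is limited by 3 arrays per genotype.

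Log2 was taken without a pseudocount. Of 41077 probe sets, 23521 carried 1 gene symbol, 1814 several and 15742 none. Each gene was represented by its probe set with the highest mean, 1082 of 22180 genes having several. All 22180 were fitted as KO minus wild type with limma 3.58.1 (lmFit, eBayes; R 4.3.3), two-sided, with Benjamini-Hochberg adjustment, and dim genes were kept. The script was first tested on simulated data. All 73 genes matched RefSeq by Entrez identifier. Promoter motifs were counted in the first promoter listed per gene. Python 3.11.15 (pandas 2.3.3, matplotlib 3.10.9) did the rest.

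Members, lists and tests were chosen with earlier results of these data known. Values on every array are given for the 8 highest and 8 lowest fold changes, genes with an unadjusted p under 0.05, Dap3 and genes with several probe sets. Alternatives were a replicate block, an unmoderated ANOVA, array weights, a robust prior with an intensity trend, filters on dim genes, quantile normalization, arrays at 1 median, the mean of probe sets, the muscle score as a covariate, other thresholds, a pseudocount, other summaries, sorting by structure and leaving out each array.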

Additional observations from a re-analysis of the deposited data

How the results depend on the processing

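In every alternative run, limma called 0 of the 73 genes at an adjusted p of 0.05, also with each array left out in turn (0 to 0) and at a limit of 0.10, and the unmoderated ANOVA called 0. At an unadjusted p under 0.05 the main count of 4 genes was 1 after quantile normalization (1.37%, against 5.42% of all genes). It was 8 with the muscle score as a covariate (10.96%, against 6.97% of all genes). With the unmoderated ANOVA it was 3, and the share over all genes is not given. With an array left out it ran from 1 to 8, where 2.82% to 7.19% of all genes passed. The 1 gene meeting the criterion of the study became 0 with the unmoderated ANOVA or with the second probe set of Ptcd3, chosen after seeing the data. With an array left out the count ran from 0 to 2, being 0 without KO replicate 2 and 2 without wild-type replicate 2. The share of all genes meeting the criterion in these runs is not given. The replicate block gave 5 genes at an unadjusted p under 0.05 (6.85%, against 5.86% of all genes) and 0 at an adjusted one. The labels do not say that a number marks a shared mouse, litter or day, same-numbered arrays correlated at 0.12, 0.01 and -0.23 in their deviations from the group means, and not every array correlated best with its own number. The median log2 fold change ran from -0.17 to -0.04 with an array left out. It was also below 0 with quantile normalization, arrays at 1 median, the mean of probe sets, the muscle covariate, a pseudocount of 16 and the mean over genes. The replicate block cannot change it in this balanced design. The median over all genes was below 0 too, at -0.0056 after quantile normalization and -0.03 to -0.04 with an array left out. The median over the 73 genes minus that over all genes was -0.06 in the main run and -0.02 after quantile normalization. The difference of large minus small subunit ran from -0.01 to 0.06 with an array left out, turning below 0 without KO replicate 1 or wild-type replicate 2. For the 23 genes given on every array, 13 of 253 values under alternatives had another sign, in 7 genes: Mrpl42, Mrpl47, Mrps5, Mrps16, Mrps17, Mrps18b and Mrps18c. Part of the 253 values could not turn. The replicate block returns the main fold change of every gene, and the mean of probe sets that of every gene with 1 probe set. In none of these 7 genes was the main value past the adjusted limit. The cause of these changes of sign was not tested. With 3 arrays per genotype, 16 of the 73 intervals reach beyond 1.5-fold lower in KO and 3 beyond 1.5-fold higher.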
